A study of Mus musculus with 8 samples.

Results

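The Wnt ligands, their receptors and their antagonists were followed as a set of 45 mouse genes listed by symbol. The set held 18 Wnt ligands, 10 frizzled receptors, 2 coreceptors, 8 secreted antagonists, 3 R-spondins, and 4 genes that carry or report the signal in the nucleus. They were 45 of 22872 genes that had a probe and a symbol on the array, and each was represented by its probe with the highest mean. The arrays measured RNA of adherent cells grown from abdominal subcutaneous fat of male C57BL/6 mice, which the study used as adipose-derived mesenchymal stem cells. The mice were 6 weeks old at the start and ate control chow (C) or a diet with 60% fat (HF), and cells were taken after 12 or 24 weeks of feeding. This gave 4 groups of 2 arrays, C12, HF12, C24 and HF24. The fat was digested with collagenase D, and the cells that stuck to uncoated plastic were passaged before RNA was taken, so every group is a cultured population. Whether the 2 arrays of a group hold RNA of different mice or plates is not given in the labels, and every p-value here rests on how far such arrays differ, a spread that may be technical.

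Wnt proteins are secreted lipid-modified ligands that bind frizzled receptors. With the coreceptors LRP5 or LRP6, binding stabilises β-catenin, which enters the nucleus and activates target genes with the TCF and LEF factors. Other Wnt ligands, such as WNT5A and WNT11, act mainly through routes that do not need β-catenin. SFRPs and WIF1 bind the ligands, DKK1 and DKK2 block the coreceptors, and R-spondins raise signalling by keeping frizzled receptors on the cell surface. In fat tissue, Wnt and β-catenin signalling is known for holding precursor cells back from becoming adipocytes.

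Of probes on an array, 65.0% to 67.2% were well above background at 12 weeks, and no spot was saturated. At 24 weeks the share was 60.3% and 62.4% in C24 and 57.5% and 59.2% in HF24. The median intensity was 72.8 and 74.5 on the HF24 arrays and 83.3 to 90.9 on the other arrays. The part of this in the lower values of dim genes in HF24 was not tested. On the slide, row 1 held 12 weeks and row 2 held 24 weeks, and the diets lay in different columns, so position cannot be told apart from feeding time or diet. All 11 mesenchymal stromal markers with a value, among them Pdgfra, Thy1 and Eng, were well above background on every array. These markers also moved with the groups, by the test described below. With the diet 6 of the 11 fell and 2 rose at 12 weeks (72.7% against 31.0% of all features). At 24 weeks 4 fell and 1 rose (45.5% against 34.1%). With time 2 fell and 4 rose on chow (54.5% against 46.1%). On the high-fat diet 1 fell and 9 rose (90.9% against 46.8%). Markers of other cell types moved as well, given here as the sum over a list of linear levels relative to the 75th percentile of the array. The sum of 14 macrophage markers was 74.4 to 76.1 in C12, 423.5 to 429.4 in HF12, 161.5 to 168.1 in C24 and 320.4 to 326.9 in HF24. The sum of 12 mature adipocyte markers was 885.3 to 891.6 in C12, 138.7 to 144.2 in HF12, 53.4 to 54.2 in C24 and 58.0 to 60.0 in HF24, where Adipoq, Retn, Cfd, Lipe and Cidea were not well above background on either array. Although this sum was higher in HF24 than in C24, 6 of the 12 markers fell and 1 rose (58.3% against 34.1% of all features). The sum of 10 skeletal muscle markers was 201.3 to 210.2 in C12, 151.3 to 157.1 in HF12, 84.9 to 85.8 in C24 and 27.1 to 27.3 in HF24, and Myf5 was above background in no group. The sum of 10 keratinocyte markers stood apart in C24, at 15.6 to 16.1 against 5.99 to 7.21 on the other arrays, with Krt15 and Cdh1 above background in no group. In a bulk sample, fewer cells of a type and less RNA per cell cannot be told apart.

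Levels below are log2 intensities relative to the 75th percentile of the array, and levels of different genes are not compared. Differences are log2 differences with their standard error from limma (2 arrays per group), and a gene is said to rise or fall where its Benjamini-Hochberg adjusted p over 29584 tested features was under 0.05. Of the 45 genes, 39 were well above background on both arrays of at least 1 group and were tested, and 32 were so on all 8 arrays. The other 6 were Wnt2b, Wnt3, Wnt3a, Wnt8b and Dkk1, above background on no array, and Wnt9b, above background on 1 HF12 and 1 HF24 array. Of the ligands best known for driving β-catenin, Wnt1 was measured, at −0.23 to −0.04 on the 8 arrays, and passed the test in no comparison.

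The comparison of 24 with 12 weeks asked how these genes differed with longer feeding and the age that comes with it. The 3 R-spondins, the ligand Wnt4, the antagonist Wif1 and the feedback gene Axin2 fell on both diets, and on chow these were the 6 lowest of the 39 differences. Wif1 was tested only because it was well above background at 12 weeks, so a fall with time was favoured by the filter. It is among the falls counted here. With C24 set at the lowest intensity well above background, its difference on chow was −1.48. On chow, 18 of the 39 genes fell and 7 rose, 64.1% of those tested against 46.1% of all features called in that comparison (22.2% lower and 23.9% higher). On the high-fat diet, 19 fell and 5 rose, 61.5% against 46.8% of all features (24.4% lower and 22.5% higher). With normexp background correction, 17 fell and 2 rose there. The median difference over the 39 genes was −0.16 on chow and −0.32 on the high-fat diet (−0.28 with groups below background set at their bound), against 0.02 and −0.01 over all features. The list was drawn up with earlier results of these data known, so shares of its genes set against those of all features are descriptions and no independent evidence.

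**Figure D1:**
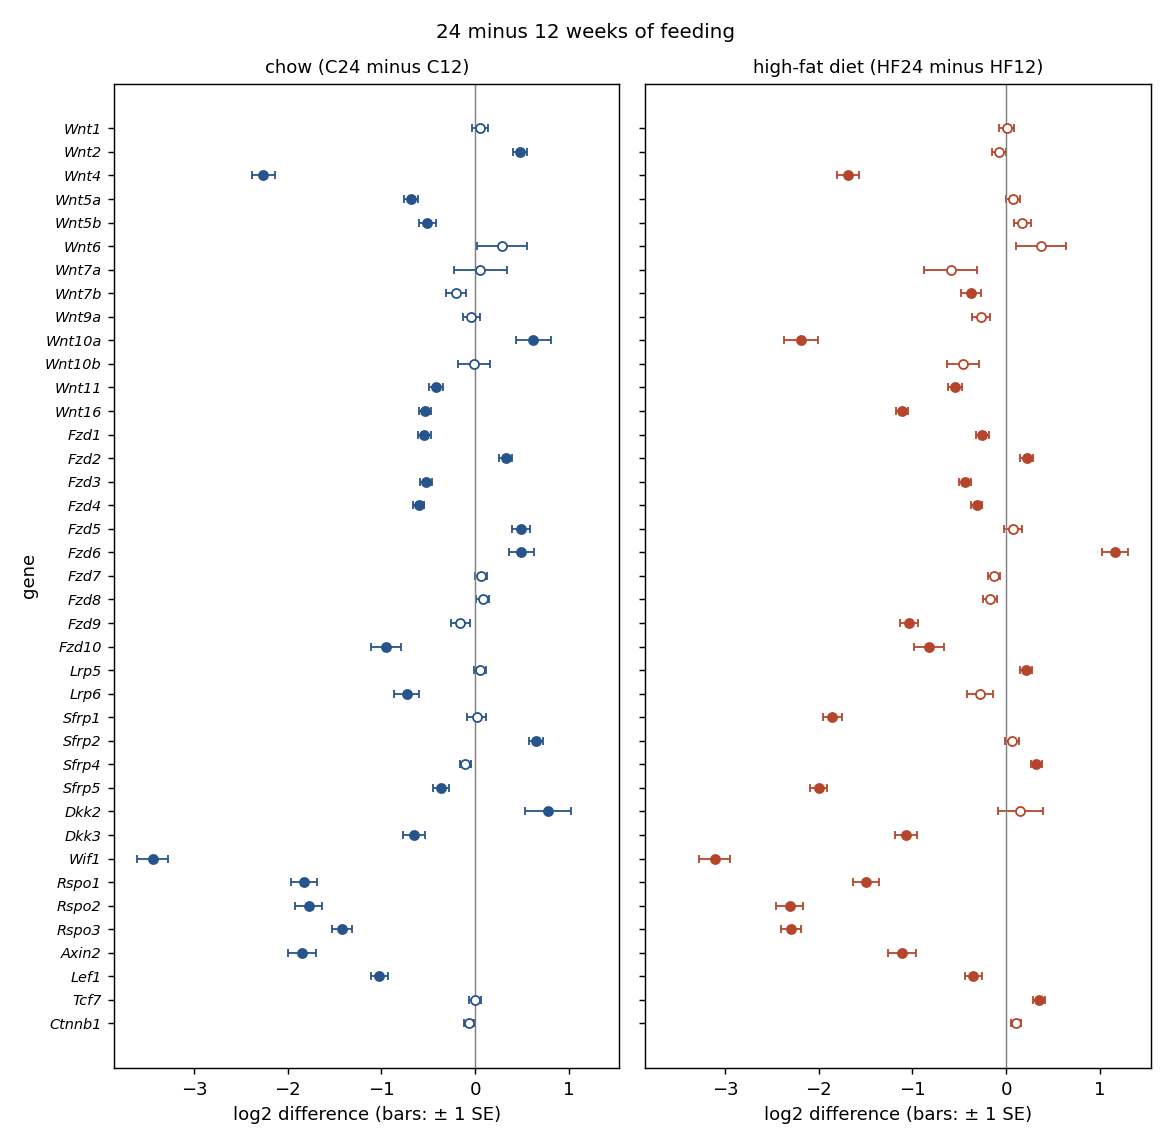
Log2 difference (x axis) between 24 and 12 weeks for the 39 tested genes (y axis), on chow (left) and on the high-fat diet (right); bars are ± 1 SE, filled points have an adjusted p under 0.05 and open points do not. The R-spondins, Wnt4, Wif1 and Axin2 lie to the left of 0 in both panels, and Sfrp1, Sfrp5 and Wnt10a fell in the right panel. For Wif1, and for Wnt10a, Wnt10b, Wnt7a and Rspo2 on the high-fat diet, the 24-week arrays were below background, so their fitted values are no measure of size.

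The comparison of the diets asked how the genes differed between high-fat diet and chow at each time. After 12 weeks Rspo1, Axin2, Lef1, Fzd4, Sfrp4, Wnt4 and Wnt2 were lower in HF12 than in C12, and Sfrp5 was higher. After 24 weeks Wnt10a, Sfrp1, Rspo3, Wnt2, Wnt16, Sfrp5 and Sfrp2 were lower in HF24 than in C24. At 12 weeks 17 of the 39 genes fell and 3 rose, 51.3% of those tested against 31.0% of all features (17.4% lower and 13.6% higher). At 24 weeks 18 fell and 1 rose, 48.7% against 34.1% (19.0% lower and 15.1% higher). The median difference was −0.24 at 12 weeks and −0.25 at 24 weeks (−0.20 with groups below background at their bound), against −0.03 and 0.02 over all features. Both counts were lower without some single arrays, and so were the counts over all features. With only C24 and HF24 in the fit, 12 of the 39 genes were called at 24 weeks. Over all 29584 features 7501 were then called, against 10076 with every array in the fit. The diet comparison at 12 weeks and the time comparison on chow share the C12 arrays, and each pair of comparisons that meets in a group shares its arrays in this way.

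**Figure D2:**
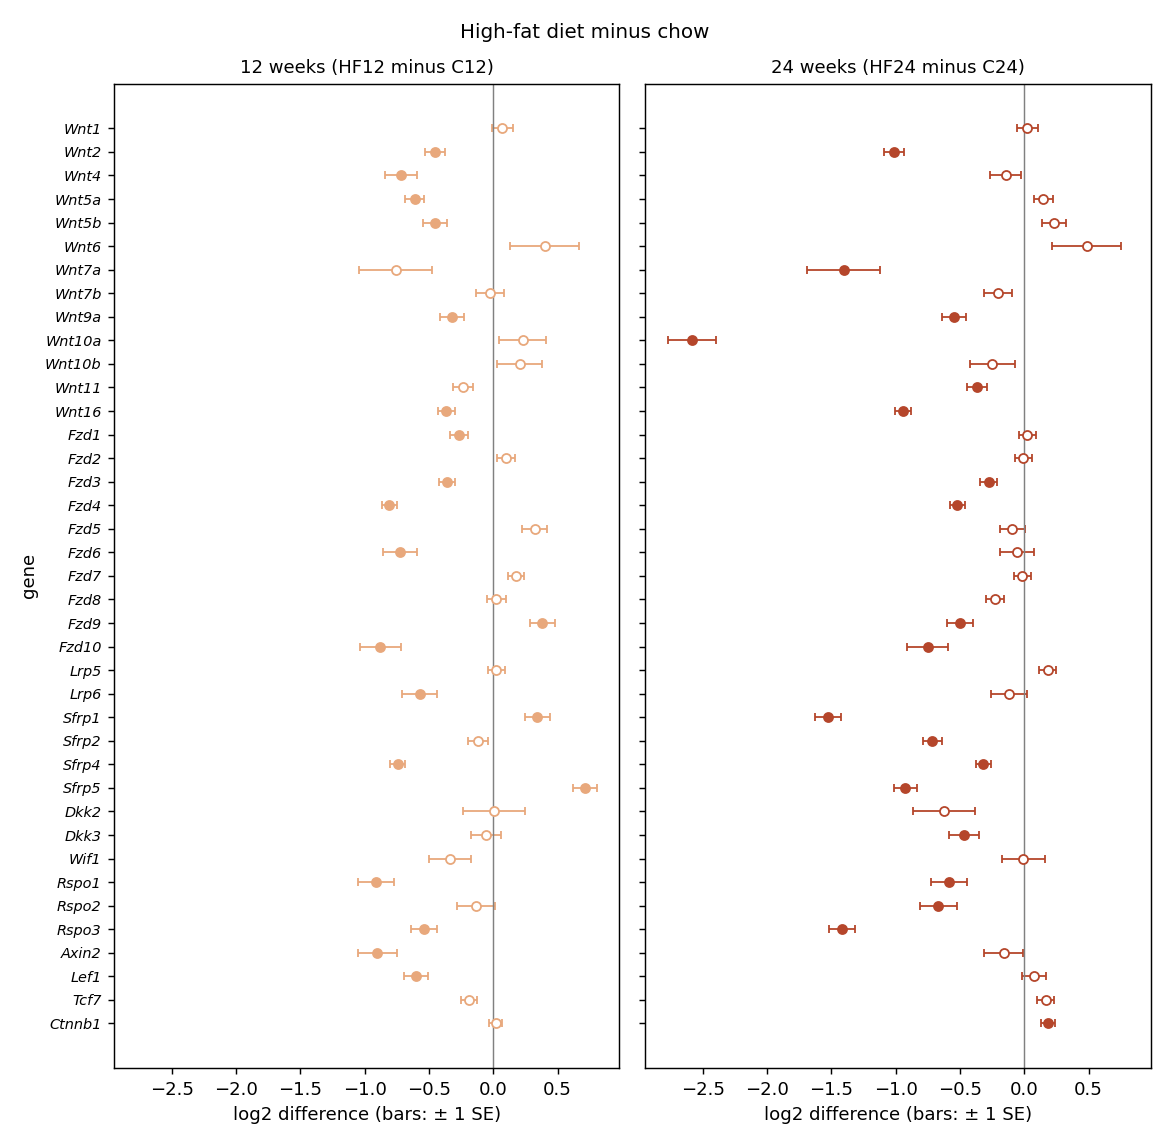
Log2 difference (x axis) between the high-fat diet and chow for the 39 tested genes (y axis), at 12 weeks (left) and 24 weeks (right); bars are ± 1 SE, filled points have an adjusted p under 0.05 and open points do not. Most filled points lie to the left of 0 in both panels, and Sfrp1, Sfrp5 and Fzd9 lie to the right of 0 at 12 weeks and to the left at 24 weeks. Both HF24 arrays were below background for Wnt10a, Wnt10b, Wnt7a, Rspo2 and Wif1. The same holds for Wif1 on both C24 arrays and for Wnt7a on both HF12 arrays.

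Among the ligands, 13 of 18 were tested, and with the high-fat diet 6 fell and 0 rose at each time. This is 46.2% of the 13, against 31.0% of all features at 12 weeks and 34.1% at 24 weeks. The 6 at 24 weeks include Wnt7a, whose difference was 0 with HF24 set at its bound. They also include Wnt11, whose difference was 0.004 with a second probe. Wnt5b passed as higher in HF24 than in C24 with quantile normalization (0.31, adjusted p = 0.0492) and with normexp (0.23, adjusted p = 0.0461), and so did Wnt6 without C24 replicate 1 (0.86, adjusted p = 0.0431). With feeding time, 5 fell and 2 rose on chow (53.8% against 46.1%), and 5 fell and 0 rose on the high-fat diet (38.5% against 46.8%), which is near or below the share of all features.

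Wnt2, a ligand that can signal through β-catenin, had levels of 1.05 and 0.97 in C12, 0.52 and 0.60 in HF12, 1.57 and 1.41 in C24, and 0.46 and 0.50 in HF24. Both chow arrays lay above both high-fat arrays at each time. With the diet it fell by 0.45 ± 0.08 at 12 weeks (adjusted p = 0.00704) and fell by 1.02 ± 0.08 at 24 weeks (adjusted p = 0.000398). On chow it rose by 0.48 ± 0.08 from 12 to 24 weeks (adjusted p = 0.00346), and on the high-fat diet the difference of −0.08 did not pass (adjusted p = 0.429).

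Wnt16, a ligand known from bone, had levels of 1.48 and 1.43 in C12, 1.08 and 1.11 in HF12, 0.94 and 0.91 in C24, and 0.04 and −0.07 in HF24. The 4 groups did not overlap and stood in that order. The diet difference was −0.36 ± 0.06 at 12 weeks (adjusted p = 0.00782, and 0.0508 without HF12 replicate 1) and −0.94 ± 0.06 at 24 weeks (adjusted p = 0.000274). The time difference was −0.53 on chow (adjusted p = 0.00115) and −1.11 on the high-fat diet (adjusted p = 9.42e-05).

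Wnt4, a ligand of the developing kidney and reproductive tract, had levels of 0.83 and 0.94 in C12, 0.15 and 0.18 in HF12, −1.50 and −1.25 in C24, and −1.65 and −1.39 in HF24. Every 24-week array lay below every 12-week array, and the C24 and HF24 arrays overlapped. With time it fell by 2.26 ± 0.12 on chow, which is 4.79-fold (adjusted p = 5.87e-05), and fell by 1.69 on the high-fat diet (adjusted p = 0.000232). With the diet it fell by 0.72 at 12 weeks (adjusted p = 0.00749), and the difference at 24 weeks was −0.15 (adjusted p = 0.402).

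Wnt10a, a ligand known from hair follicles and teeth that also restrains fat cell formation, was dim. Its levels were −4.42 and −4.28 in C12, −4.35 and −3.90 in HF12, −3.59 and −3.87 in C24, and −6.45 and −6.17 in HF24. Both HF24 arrays were not well above background and lay below all others. Against the lowest intensity well above background on those arrays, Wnt10a was at least 2.16-fold lower in HF24 than in C24 and at least 1.65-fold lower than in HF12. The adjusted p of the fitted differences was 0.000352 and 0.000409, and the bounds were not tested. With normexp background correction the fitted differences shrank from −2.58 to −0.62 and from −2.19 to −0.50, and both passed. Its rise of 0.62 on chow (adjusted p = 0.0368) did not pass without any 1 of the C12 or C24 arrays (0.0503 to 0.151), nor with normexp (0.0965) or without the filter on dim probes (0.0507).

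Wnt5a and Wnt5b, ligands of the routes that do not use β-catenin, were lower in HF12 than in C12 and not lower in HF24 than in C24. Wnt5a levels were 1.14 and 1.27 in C12, 0.66 and 0.54 in HF12, 0.49 and 0.56 in C24, and 0.66 and 0.69 in HF24. It fell by 0.61 with the diet at 12 weeks (adjusted p = 0.00201) and fell by 0.68 with time on chow (adjusted p = 0.000867). Wnt5b had differences of −0.45 (adjusted p = 0.0135) and −0.51 (adjusted p = 0.00558) in the same comparisons. These values come from the brightest probes. A second Wnt5a probe gave −0.05 (adjusted p = 0.948) and −0.34 (adjusted p = 0.588), and its HF12 arrays differed, at −3.09 and −4.53. A second Wnt5b probe gave −0.16 (adjusted p = 0.248) and −0.30 (adjusted p = 0.0433), and the 12-week call of Wnt5b was also lost without C12 replicate 1 (0.0713) or HF12 replicate 1 (0.0785).

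Wnt9a, expressed in limb and joint development, fell by 0.55 ± 0.09 with the diet at 24 weeks (adjusted p = 0.00642). Its difference of −0.32 at 12 weeks (adjusted p = 0.0435) was lost without any 1 array except C12 replicate 2 (0.0601 to 0.190). Wnt11 fell by 0.42 with time on chow (adjusted p = 0.0067) and fell by 0.55 on the high-fat diet (adjusted p = 0.00264), while a second probe gave −0.43 and −0.13 (adjusted p = 0.106 for the latter). Its difference of −0.37 with the diet at 24 weeks (adjusted p = 0.015) was lost without C24 replicate 2 (0.0597), HF24 replicate 1 (0.0761) or HF24 replicate 2 (0.0523), and the log2 difference was 0.004 with the second probe. Wnt7b fell by 0.37 with time on the high-fat diet (adjusted p = 0.0338), a call lost with quantile normalization (0.134), with normexp (0.108), with a second probe (0.877) and without any 1 of C12 replicates 1 and 2, HF12 replicate 2 and HF24 replicates 1 and 2 (0.0526 to 0.142). Wnt7a levels were −5.15 and −5.14 in C12, −5.84 and −5.97 in HF12, −5.55 and −4.64 in C24, and −6.64 and −6.36 in HF24. It was above background on both C12 arrays and 1 C24 array, so its lower value in HF24 than in C24 (−1.41, adjusted p = 0.0128, 0.0581 without HF24 replicate 1, and −0.29 with adjusted p = 0.0587 with normexp) has no fold. Wnt1, Wnt6 and Wnt10b passed in no comparison with all 8 arrays in the fit.

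**Figure D3:**
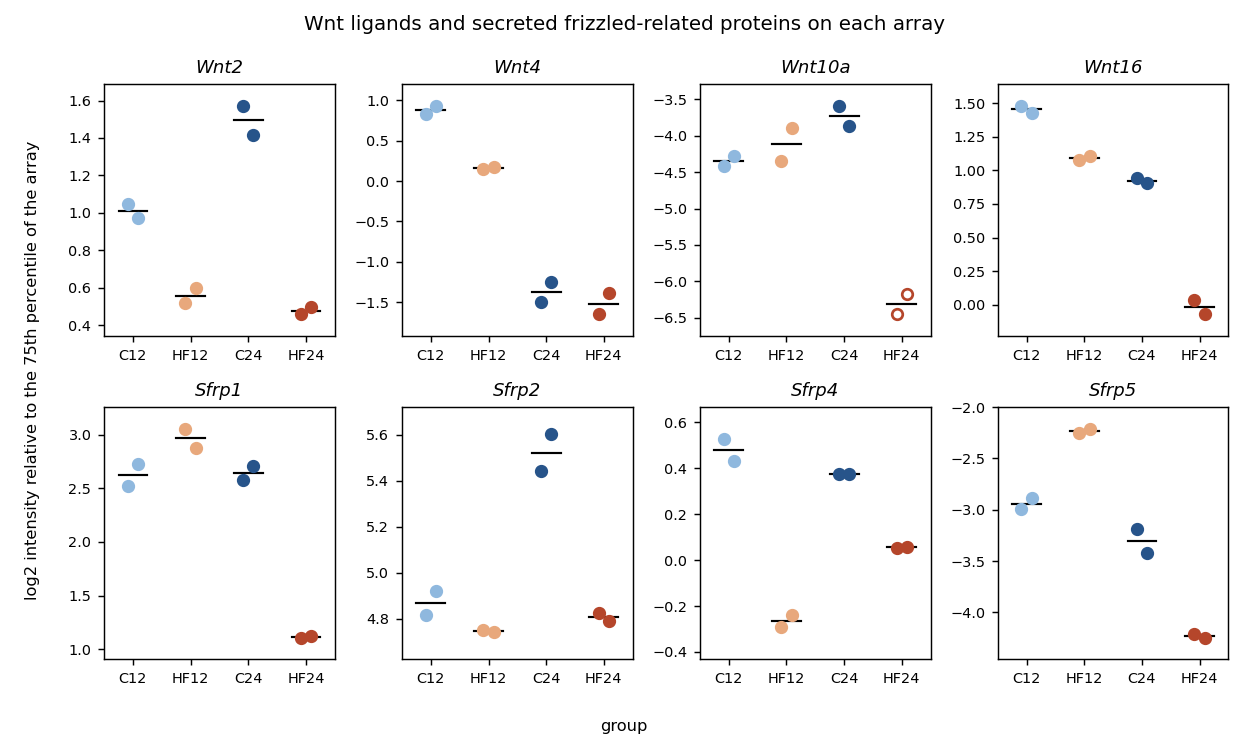
Level of 4 ligands and 4 secreted frizzled-related proteins on each array (y axis, log2 intensity relative to the 75th percentile of the array) by group (x axis); points are arrays, bars are group means, and open points are groups not well above background on either array. HF24 stands lowest for Wnt16, Wnt10a, Sfrp1 and Sfrp5, and Sfrp2 stands highest in C24.

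All 10 frizzled receptors were tested. With the diet, 5 fell and 1 rose at 12 weeks (60.0% against 31.0% of all features), and 4 fell and 0 rose at 24 weeks (40.0% against 34.1%, which is near it). With time, 4 fell and 3 rose on chow (70.0% against 46.1%), and 5 fell and 2 rose on the high-fat diet (70.0% against 46.8%). Fzd7 and Fzd8 passed in no comparison, except that Fzd8 passed at −0.23 for the diet at 24 weeks when only features above background on all arrays were tested (adjusted p = 0.0409).

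Fzd4, the receptor that also binds the non-Wnt ligand Norrin, fell in all 4 comparisons. Its levels were 3.46 and 3.42 in C12, 2.61 and 2.65 in HF12, 2.80 and 2.88 in C24, and 2.30 and 2.33 in HF24. With the diet it fell by 0.81 ± 0.06 at 12 weeks (adjusted p = 0.000229) and fell by 0.52 at 24 weeks (adjusted p = 0.0015). With time it fell by 0.60 on chow (adjusted p = 0.000566) and fell by 0.32 on the high-fat diet (adjusted p = 0.00716).

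Fzd6, a receptor known for planar polarity of hair and skin, moved upward with time. Its levels were −3.11 and −3.16 in C12, −3.78 and −3.94 in HF12, −2.65 and −2.62 in C24, and −2.89 and −2.50 in HF24. From HF12 to HF24 it rose by 1.16 ± 0.13, which is 2.24-fold (adjusted p = 0.00126, and 0.77 on the log2 scale with normexp). Its rise of 0.49 on chow (adjusted p = 0.0267) was lost without any 1 of the C12 or C24 arrays (0.0794 to 0.103). The HF12 arrays were the lowest, −0.72 against C12 (adjusted p = 0.0103), a call lost without C12 replicate 1 (0.0593) or HF12 replicate 2 (0.0616) and reduced to −0.30 with normexp.

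Fzd9 went the other way with time on the high-fat diet. Its levels were −1.85 and −2.12 in C12, −1.61 and −1.59 in HF12, −2.15 and −2.13 in C24, and −2.59 and −2.69 in HF24. It fell by 1.04 ± 0.10 from HF12 to HF24 (adjusted p = 0.000611, and −0.67 with normexp). At 12 weeks it was 0.38 higher with the diet (adjusted p = 0.0319), a call lost without C12 replicate 2, either HF12 array or either C24 array (0.0532 to 0.122). The difference at 24 weeks was −0.50 (adjusted p = 0.0115, 0.0556 without HF24 replicate 2, and −0.27 with normexp).

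Fzd10 and Fzd3 also fell in all 4 comparisons. The differences of Fzd10 were −0.88 and −0.75 for the diet at 12 and 24 weeks (adjusted p = 0.00947 and 0.0154) and −0.95 and −0.82 for time on chow and on the high-fat diet (adjusted p = 0.00449 and 0.00829). Its diet calls were lost without C12 replicate 1 (0.0597) or HF12 replicate 1 (0.0599) at 12 weeks and without C24 replicate 1 (0.0633) or HF24 replicate 1 (0.0616) at 24 weeks. With normexp the 4 differences were −0.48, −0.17, −0.55 and −0.23, of which the second and the fourth did not pass (adjusted p = 0.181 and 0.0602). Fzd3 ranged from −0.28 to −0.52 over the 4 comparisons; its diet call at 12 weeks was lost without HF12 replicate 1 (0.0506), and that at 24 weeks without C24 replicate 2 (0.0868) or either HF24 array (0.0962 and 0.0814), with quantile normalization (0.148) and with normexp (−0.07, adjusted p = 0.424). Its time difference on the high-fat diet shrank from −0.44 to −0.22 with normexp and still passed. Fzd1, at 2.90 to 3.54 on the 8 arrays, fell by 0.54 with time on chow (adjusted p = 0.00152). Fzd5 and Fzd2 rose on chow by 0.49 (adjusted p = 0.00887, with 0.30 by normexp and 0.93 by a second probe) and 0.33 (adjusted p = 0.0109, and 0.0548 without C24 replicate 2).

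Of the coreceptors, Lrp5 stayed between 0.83 and 1.13 on the 8 arrays. Its level was 0.83 and 0.94 in C12, 0.87 and 0.94 in HF12, 0.96 and 0.91 in C24, and 1.13 and 1.11 in HF24. It passed once, at 0.21 ± 0.06 from HF12 to HF24 (adjusted p = 0.0389), a call lost without either HF12, C24 or HF24 array (0.0585 to 0.169), with quantile normalization (0.0815) and with normexp (0.150). Lrp6 had levels of 3.48 and 3.22 in C12, 2.69 and 2.86 in HF12, 2.76 and 2.48 in C24, and 2.42 and 2.57 in HF24. The C12 arrays were the highest. It fell by 0.73 ± 0.14 with time on chow (adjusted p = 0.00705, and −0.39 with a second probe). Its difference of −0.57 with the diet at 12 weeks (adjusted p = 0.0256) was lost without C12 replicate 1 (0.122), HF12 replicate 1 (0.128) or HF12 replicate 2 (0.0631), and a second probe gave −0.18 (adjusted p = 0.224).

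Of the 7 secreted antagonists tested, 5 fell and 0 rose with the diet at 24 weeks (71.4% against 34.1% of all features), and Sfrp1, Sfrp2 and Sfrp5 passed without any 1 array. At 12 weeks 2 rose and 1 fell (42.9% against 31.0%). With time, 3 fell and 2 rose on chow (71.4% against 46.1%), and 4 fell and 1 rose on the high-fat diet (71.4% against 46.8%). The falls with time include Wif1 on both diets, which was tested only through the 12-week groups. Between C24 and HF24 the summed keratinocyte markers fell from 15.6 to 16.1 down to 6.71 to 7.21, the summed muscle markers from 84.9 to 85.8 down to 27.1 to 27.3, and the summed Schwann cell markers from 19.3 to 19.7 down to 6.20 to 6.23. The summed mesothelial markers fell too. The summed macrophage markers rose from 161.5 to 168.1 up to 320.4 to 326.9. Those of pericytes and smooth muscle rose from 474.9 to 489.6 up to 668.3 to 683, and the endothelial sum was also higher. The part of these lists in the antagonist differences was not tested.

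Sfrp1, a secreted frizzled-related protein that binds Wnt ligands, stood lowest in HF24. Its levels were 2.52 and 2.73 in C12, 3.06 and 2.88 in HF12, 2.58 and 2.70 in C24, and 1.11 and 1.12 in HF24. The C12, HF12 and C24 arrays lay within 2.52 to 3.06. The difference between HF24 and C24 was −1.53 ± 0.10, which is 2.88-fold (adjusted p = 0.000269), and that between HF24 and HF12 was −1.85 (adjusted p = 8.23e-05). At 12 weeks it was 0.34 higher with the diet (adjusted p = 0.0477), a call lost without any 1 array except C12 replicate 2 (0.0623 to 0.207).

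Sfrp5, an SFRP known as an adipokine, was dimmer and moved in the same sense. Its levels were −2.99 and −2.89 in C12, −2.25 and −2.21 in HF12, −3.19 and −3.42 in C24, and −4.21 and −4.25 in HF24. It was 0.71 ± 0.09 higher with the diet at 12 weeks (adjusted p = 0.00235), and at 24 weeks the difference was −0.93 (adjusted p = 0.000908, and −0.36 with normexp). From HF12 to HF24 it fell by 2.0 (adjusted p = 4.23e-05, and −1.07 with normexp). Its difference of −0.36 on chow (adjusted p = 0.0195) was lost without C12 replicate 2 (0.0878) or C24 replicate 2 (0.0684), with normexp (0.0506) and with only the groups compared (0.0684).

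Sfrp2 was highest in C24, at 5.44 and 5.60, against 4.74 to 4.92 on the other 6 arrays. It rose by 0.66 ± 0.07 with time on chow (adjusted p = 0.00102) and fell by 0.72 with the diet at 24 weeks (adjusted p = 0.00115). Sfrp4 was lowest in HF12, at −0.29 and −0.24, against 0.53 and 0.43 in C12, 0.38 and 0.37 in C24, and 0.05 and 0.06 in HF24. With the diet it fell by 0.74 ± 0.06 at 12 weeks (adjusted p = 0.000324) and fell by 0.32 at 24 weeks (adjusted p = 0.00909, and 0.0531 without HF24 replicate 1).

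Dkk3, a divergent member of the Dickkopf family, fell with time. Its levels were 3.49 and 3.26 in C12, 3.25 and 3.39 in HF12, 2.83 and 2.62 in C24, and 2.20 and 2.31 in HF24. The difference was −0.66 ± 0.12 on chow (adjusted p = 0.0058, and −0.40 with a second probe) and −1.06 on the high-fat diet (adjusted p = 0.00106). Its difference of −0.47 with the diet at 24 weeks (adjusted p = 0.0276) was lost without C24 replicate 1 (0.121), HF24 replicate 1 (0.118) or HF24 replicate 2 (0.0605). Dkk2, a blocker of the coreceptors, differed between the HF12 arrays, at −3.77 and −2.96. It rose by 0.78 on chow (adjusted p = 0.0414), a call lost when a single C12, C24 or HF24 array was dropped (0.0573 to 0.131), and 0.50 with normexp.

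Wif1, which binds Wnt ligands outside the cell, was measured at 12 weeks and was not well above background at 24 weeks. Its levels were −3.45 and −3.73 in C12, −4.11 and −3.75 in HF12, −7.16 and −6.91 in C24, and −6.96 and −7.12 in HF24. The 12-week and 24-week arrays did not overlap. It passed the filter on dim probes through the 12-week groups alone. It was at least 2.79-fold lower in C24 than in C12 and at least 1.88-fold lower in HF24 than in HF12. The adjusted p of the fitted differences was 3.76e-05 and 7.49e-05, and the bounds were not tested. With normexp the fitted fall was −1.02 on chow and −0.87 on the high-fat diet, in place of −3.44 and −3.11, and both passed.

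The 3 R-spondins fell with time on both diets, and all 3 were lower with the high-fat diet at 24 weeks. Of these 24-week diet calls, those of Rspo1 and Rspo2 were lost under alternatives given below. At 12 weeks Rspo1 and Rspo3 were lower with the diet, and Rspo2 was not called. R-spondins act through the receptors LGR4, LGR5 and LGR6 and the ubiquitin ligases ZNRF3 and RNF43.

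Rspo1 had levels of −0.13 and −0.34 in C12, −1.17 and −1.13 in HF12, −1.96 and −2.16 in C24, and −2.82 and −2.47 in HF24. The groups stood in that order with no overlap. With time it fell by 1.83 ± 0.14 on chow, which is 3.54-fold (adjusted p = 0.000227), and on the high-fat diet the difference was −1.50 (adjusted p = 0.000608). With the diet it fell by 0.91 at 12 weeks (adjusted p = 0.00518) and fell by 0.59 at 24 weeks (adjusted p = 0.0238), the last being lost without C24 replicate 1 (0.109) or HF24 replicate 1 (0.0879), with quantile normalization (0.0523), with no filter (0.0547) and with only the groups compared (0.0771), and reduced to −0.33 with normexp.

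Rspo3 had levels of 0.54 and 0.34 in C12, −0.14 and −0.06 in HF12, −0.97 and −1.0 in C24, and −2.51 and −2.29 in HF24. Here too the groups stood apart in the same order. With time it fell by 1.42 ± 0.10 on chow (adjusted p = 0.000178) and fell by 2.30 on the high-fat diet, which is 4.92-fold (adjusted p = 4.12e-05). The diet difference was −0.54 at 12 weeks (adjusted p = 0.0113, 0.0585 without C12 replicate 1 and 0.069 without HF12 replicate 1) and −1.42 at 24 weeks (adjusted p = 0.000369).

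Rspo2 had levels of −2.30 and −2.55 in C12, −2.50 and −2.61 in HF12, −4.17 and −4.23 in C24, and −5.06 and −4.67 in HF24. The 12-week groups overlapped, and both HF24 arrays were not well above background. It fell by 1.78 ± 0.15 on chow, which is 3.43-fold (adjusted p = 0.000297, and −1.03 with normexp). It was at least 4.45-fold lower in HF24 than in HF12, where the fitted difference of −2.31 (adjusted p = 0.000145) was reduced to −1.09 by normexp. Against C24 it was at least 1.43-fold lower in HF24 (adjusted p = 0.0173), a call lost without C24 replicate 1 (0.0749), C24 replicate 2 (0.0559) or HF24 replicate 1 (0.0534), with normexp (0.196) and with only the groups compared (0.058).

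The genes of the nucleus split. Axin2, a scaffold of the β-catenin destruction complex and a widely used target of β-catenin, and Lef1, a DNA-binding partner of β-catenin, fell with the diet at 12 weeks and with time. Tcf7, another such partner, and Ctnnb1, which encodes β-catenin itself, did not fall in any comparison.

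Axin2 had levels of −2.11 and −2.52 in C12, −3.32 and −3.11 in HF12, −4.11 and −4.22 in C24, and −4.25 and −4.40 in HF24. The C12 arrays were the highest and all 24-week arrays the lowest. It fell by 0.90 ± 0.15 with the diet at 12 weeks (adjusted p = 0.00716), fell by 1.85 with time on chow, which is 3.60-fold (adjusted p = 0.000287), and fell by 1.11 with time on the high-fat diet (adjusted p = 0.00232). At 24 weeks the diet difference was −0.16 (adjusted p = 0.452). With normexp the 3 falls were −0.59, −1.11 and −0.52, and all passed. A second Axin2 probe was above background on 1 of the 8 arrays, HF24 replicate 2, and was not tested.

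Lef1 had levels of −1.73 and −1.72 in C12, −2.31 and −2.33 in HF12, −2.84 and −2.64 in C24, and −2.58 and −2.76 in HF24. The C24 and HF24 arrays overlapped and lay below all 12-week arrays. It fell by 0.60 ± 0.09 with the diet at 12 weeks (adjusted p = 0.0049) and fell by 1.02 with time on chow (adjusted p = 0.000406). Its difference of −0.35 on the high-fat diet (adjusted p = 0.0237) was lost without HF12 replicate 1 (0.0991), HF12 replicate 2 (0.0812) or HF24 replicate 2 (0.111) and with quantile normalization (0.122), and was −0.20 with normexp. The diet difference at 24 weeks was 0.07 (adjusted p = 0.568).

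Tcf7 was dim, at −4.35 and −4.38 in C12, −4.56 and −4.54 in HF12, −4.42 and −4.29 in C24, and −4.19 and −4.20 in HF24. It rose by 0.35 ± 0.06 from HF12 to HF24 (adjusted p = 0.00602), a call lost with normexp (0.0803) and with an intensity trend in the variance (0.103). Ctnnb1 stayed between 3.83 and 4.04, at 3.90 and 3.94 in C12, 3.94 and 3.93 in HF12, 3.83 and 3.88 in C24, and 4.04 and 4.03 in HF24. It passed once, 0.18 higher in HF24 than in C24 (adjusted p = 0.0404), a call lost when a single HF12, C24 or HF24 array was dropped (0.071 to 0.170), with quantile normalization (0.235) and with a second probe (0.320).

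**Figure D4:**
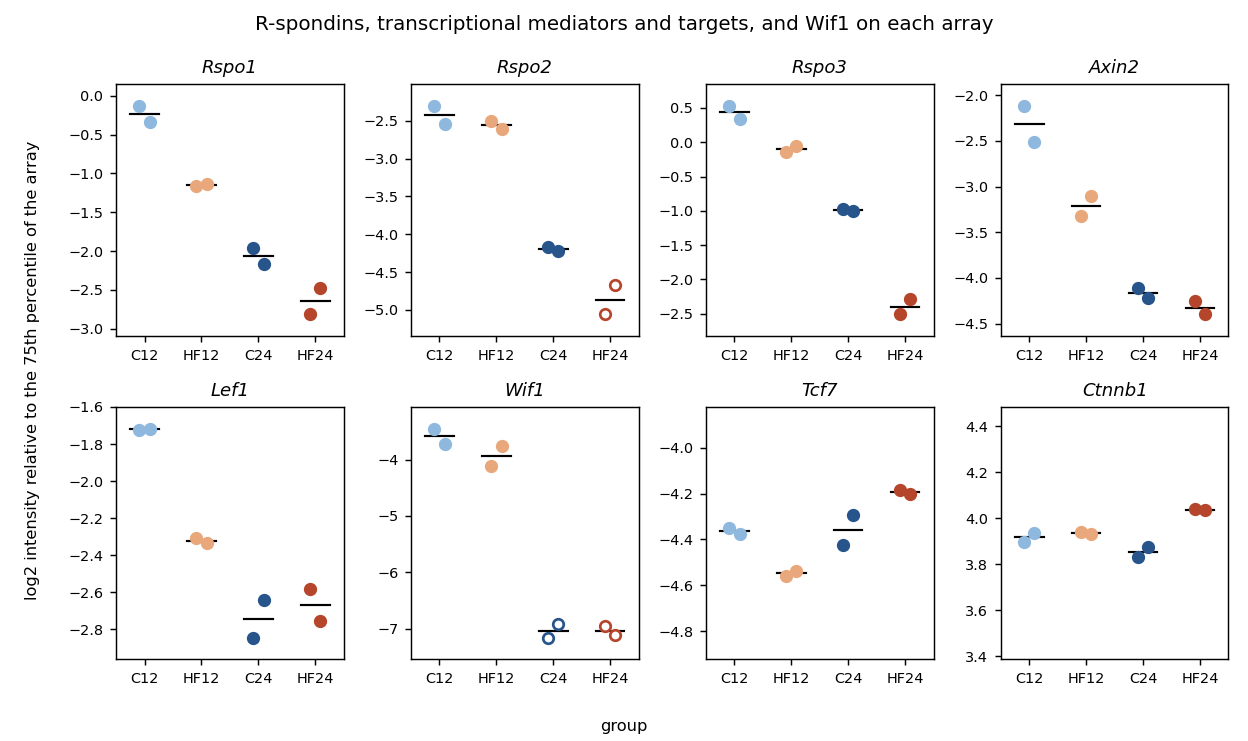
Level of the R-spondins, Axin2, Lef1, Wif1, Tcf7 and Ctnnb1 on each array (y axis, log2 intensity relative to the 75th percentile of the array) by group (x axis); points are arrays, bars are group means, and open points are groups not well above background on either array. For the R-spondins, Axin2, Lef1 and Wif1 all 24-week arrays lie below all 12-week arrays, while Ctnnb1 lies between 3.83 and 4.04 on all 8. How many of all features separate in this way was not counted. With time 22.2% of all features were called lower on chow and 24.4% on the high-fat diet. Wif1 was below background on every 24-week array and was tested only through the 12-week groups.

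Over the same groups the summed mature adipocyte markers fell from 885.3 to 891.6 in C12 to 138.7 to 144.2 in HF12 and 53.4 to 54.2 in C24, and the summed muscle markers fell with time on both diets. Other lists rose. The summed macrophage markers were 74.4 to 76.1 in C12, 423.5 to 429.4 in HF12 and 161.5 to 168.1 in C24. Those of 10 endothelial markers were 31.19 to 32.21 in C12, 26.36 to 27.15 in HF12, 57.79 to 60.41 in C24 and 70.38 to 72.1 in HF24. The summed pericyte and smooth muscle markers also rose with time on both diets. The part of these in the falls of the R-spondins, Wif1, Wnt4, Axin2 and Lef1 was not tested.

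Promoter windows are shown for those of the 6 genes with the lowest time differences on chow that have an entry in the RefSeq promoter table, which are Axin2, Rspo1, Wif1 and Wnt4, since these genes fell together on both diets. Each window is the 250 bases before the transcript start on assembly GRCm38.p6, 5′ to 3′ on the strand of the gene. Axin2 is at chr11:108920099-108920348, Rspo1 at chr4:124986180-124986429, Wif1 at chr10:121033754-121034003 and Wnt4 at chr4:137277385-137277634, all on the plus strand. Capitals mark GC boxes, GGGCGG on either strand.
Axin2: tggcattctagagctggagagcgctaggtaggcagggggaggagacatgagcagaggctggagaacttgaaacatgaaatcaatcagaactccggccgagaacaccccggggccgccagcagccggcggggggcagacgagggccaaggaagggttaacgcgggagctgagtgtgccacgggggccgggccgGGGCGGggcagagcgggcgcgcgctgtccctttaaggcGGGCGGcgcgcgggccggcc
Rspo1: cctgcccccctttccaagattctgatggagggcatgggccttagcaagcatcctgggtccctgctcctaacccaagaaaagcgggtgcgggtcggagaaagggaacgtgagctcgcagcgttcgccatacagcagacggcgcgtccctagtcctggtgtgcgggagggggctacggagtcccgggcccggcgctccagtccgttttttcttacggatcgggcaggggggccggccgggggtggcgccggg
Wif1: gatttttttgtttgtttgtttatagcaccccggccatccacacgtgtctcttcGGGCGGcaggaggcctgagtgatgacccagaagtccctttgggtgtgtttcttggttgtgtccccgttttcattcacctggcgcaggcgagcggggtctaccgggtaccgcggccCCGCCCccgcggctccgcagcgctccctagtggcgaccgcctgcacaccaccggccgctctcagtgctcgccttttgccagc
Wnt4: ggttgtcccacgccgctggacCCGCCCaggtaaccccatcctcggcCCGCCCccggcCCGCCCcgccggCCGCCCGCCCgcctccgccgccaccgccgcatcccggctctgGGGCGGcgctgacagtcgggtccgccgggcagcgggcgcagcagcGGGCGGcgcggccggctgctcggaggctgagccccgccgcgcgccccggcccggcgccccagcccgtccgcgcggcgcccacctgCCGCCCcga
The motifs searched first were CTTTGAA, besides CTTTGAT, besides CTTTGTA, besides CTTTGTT, on both strands, the letters that TCF and LEF factors bind. These 4 windows hold no match. Of 39 windows for 31 of the 45 genes, 5 held one (12.8%), against 14.8% of 32851 windows in the table. The GC box was chosen after that search had been seen. It occurs 2 times in the Axin2 window, 0 times in Rspo1, 2 times in Wif1 and 8 times in Wnt4, and in 29 of the 39 windows (74.4%) against 32.7% of all. The windows of these genes are also richer in G and C, with a median of 66.8% against 52.4%. A match is a description of letters, and no match says only that these letters are absent from this window.

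Some ligand genes lie side by side in the genome with no other protein-coding gene between them. Wnt6 and Wnt10a are neighbours on chromosome 1, Wnt10b and Wnt1 on chromosome 15, and Wnt3a with Wnt9a and Wnt9b with Wnt3 on chromosome 11. Wnt10a was lowest in HF24, while Wnt6 was −4.32 and −4.40 there and −4.47 and −5.22 in C24, a difference of 0.49 that did not pass (adjusted p = 0.215). Wnt9a was above background on all arrays and Wnt3a on none.

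Other genes of the pathway were counted from lists written down beside the 45. Among other secreted, membrane-bound or secretory-pathway regulators of Wnt signalling, 10 of 14 were tested. With the diet 2 fell and 1 rose at 12 weeks (30.0% against 31.0% of all features), and 4 fell and 1 rose at 24 weeks (50% against 34.1%). With time 3 fell on chow (30.0% against 46.1%) and 5 on the high-fat diet (50% against 46.8%), and 0 rose. Apcdd1, a membrane-bound inhibitor of Wnt signalling, fell in all 4 comparisons, with differences of −1.39 ± 0.09 and −0.96 for the diet at 12 and 24 weeks and of −2.25 and −1.82 for time on chow and on the high-fat diet (adjusted p = 0.000167, 0.00091, 2.42e-05 and 6.95e-05). Gpc3, a glypican that binds Wnt ligands, fell by 1.26 with the diet at 12 weeks (adjusted p = 0.00526) and fell by 2.16 with time on chow (adjusted p = 0.000422).

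Among other receptors and their regulators, 11 of 13 were tested, and 6 rose and 3 fell with time on chow (81.8% against 46.1% of all features), while 5 rose and 2 fell on the high-fat diet (63.6% against 46.8%). With the diet 2 rose and 3 fell at 12 weeks (45.5% against 31.0%), and 4 rose and 2 fell at 24 weeks (54.5% against 34.1%). Tspan12, a tetraspanin that assists FZD4, fell by 1.56 ± 0.07 with the diet at 12 weeks (adjusted p = 3.22e-05) and fell by 1.36 with time on chow (adjusted p = 5.2e-05), and rose by 0.53 with the diet at 24 weeks (adjusted p = 0.00286) and by 0.73 with time on the high-fat diet (adjusted p = 0.000682). Lgr5, a receptor for R-spondins, rose by 1.42 with time on chow (adjusted p = 0.00106) and fell by 1.31 with the diet at 24 weeks (adjusted p = 0.00219). Lgr4, another such receptor, fell by 0.75 with the diet at 12 weeks (adjusted p = 0.0062).

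All 24 intracellular signalling genes were tested. With the diet 7 fell and 1 rose at 12 weeks (33.3% against 31.0% of all features), and 0 fell and 2 rose at 24 weeks (8.33% against 34.1%). With time 9 fell and 2 rose on chow (45.8% against 46.1%), and 5 fell and 5 rose on the high-fat diet (41.7% against 46.8%). Except for the diet at 24 weeks, these shares are near those of all features. Tcf7l2, a DNA-binding partner of β-catenin, fell by 0.70 ± 0.08 with the diet at 12 weeks (adjusted p = 0.00121), fell by 1.12 with time on chow (adjusted p = 0.000132) and fell by 0.46 with time on the high-fat diet (adjusted p = 0.00436). Amer1, which acts in the destruction complex, fell by 0.64 (adjusted p = 0.000427) and fell by 1.02 (adjusted p = 5.22e-05) in the first and the second of these comparisons. Bcl9l, a coactivator of β-catenin, fell by 0.46 (adjusted p = 0.0024) and fell by 0.71 (adjusted p = 0.000289) in the same pair.

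Known β-catenin targets moved both ways. Of 12, 11 were tested, and 4 rose and 2 fell with the diet at 12 weeks (54.5% against 31.0% of all features) and 1 rose and 1 fell at 24 weeks (18.2% against 34.1%). With time 6 rose and 3 fell on chow (81.8% against 46.1%), and 5 rose and 5 fell on the high-fat diet (90.9% against 46.8%). The feedback inhibitors Nkd1 and Nkd2 fell with time on chow, with differences of −1.48 ± 0.11 (adjusted p = 0.000176) and −1.03 ± 0.06 (adjusted p = 0.000104), and with the diet at 12 weeks, with −0.64 (adjusted p = 0.00719) and −0.77 (adjusted p = 0.000445). The growth genes Myc and Fosl1 rose with time on chow by 1.39 ± 0.07 (adjusted p = 4.46e-05) and 1.72 ± 0.12 (adjusted p = 0.000176). Ccnd1, which encodes cyclin D1, rose by 1.33 ± 0.06 with the diet at 12 weeks (adjusted p = 3.31e-05) and fell by 1.07 with time on the high-fat diet (adjusted p = 0.000101). These growth genes also answer to many signals other than Wnt.

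Of 11 planar polarity genes, all tested, 5 fell and 1 rose with the diet at 12 weeks (54.5% against 31.0% of all features), and 4 fell and 2 rose at 24 weeks (54.5% against 34.1%). With time 3 fell and 2 rose on chow (45.5% against 46.1%, about the same), and 3 fell and 4 rose on the high-fat diet (63.6% against 46.8%). With the diet Prickle2 fell by 0.84 ± 0.08 at 12 weeks (adjusted p = 0.00075) and fell by 0.62 at 24 weeks (adjusted p = 0.00258). Daam2, a formin bound by Dishevelled, rose with time by 1.12 ± 0.10 on chow (adjusted p = 0.000404) and by 0.80 on the high-fat diet (adjusted p = 0.00167).

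Whether the diet difference itself changed between 12 and 24 weeks was tested as an interaction. It passed for 16 of the 39 genes, 8 in each direction, which is 41.0% against 29.9% of all features (16.0% lower and 13.9% higher). A negative interaction, a lower diet difference at 24 than at 12 weeks, was seen for Sfrp1, Sfrp5, Sfrp2, Wnt2, Wnt16, Wnt10a, Fzd9 and Rspo3. A positive one was seen for Wnt5a, Wnt5b, Lef1, Axin2, Sfrp4, Fzd6, Fzd4 and Tcf7. The interaction was −1.87 ± 0.14 for Sfrp1 (adjusted p = 0.000447) and −1.64 ± 0.13 for Sfrp5 (adjusted p = 0.000485, and −0.88 with normexp). For Rspo3 it was −0.88 ± 0.15 (adjusted p = 0.00725, and −0.52 with normexp). Rspo1 did not pass, at 0.33 ± 0.20 (adjusted p = 0.272). The calls of Axin2, Fzd4, Fzd6 and Tcf7 were lost when single arrays were left out, without 7, 8, 7 and 7 of the 8 arrays in turn; the adjusted p then reached 0.140, 0.141, 0.129 and 0.0969.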

How the data were processed

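Total RNA of cultured adipose stromal cells was measured on 8 one-colour (Cy3) Agilent mouse arrays, 2 in each of 4 groups, on 1 slide. Agilent Feature Extraction 11.0.1.1, named in the submitters' processing notes, subtracted background and spatial trend from each spot to give the deposited processed intensity, per the file headers; arrays were not normalized against each other. The deposited median and background intensity columns are unprocessed, per the file headers. A value table that the authors deposited holds log2 values; over the 38346 probes matched, each column equals the log2 processed intensity shifted by a constant between −9.99 and −9.79. The rule behind the constant is unstated.

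Outlier spots were dropped, which removed 192 of 56605 probes, and log2 processed intensities were set relative to the 75th percentile of each array. Probes well above background on both arrays of at least 1 group were kept (37649), and the brightest stood for its gene, which gave 29584 features, 16732 with a symbol. Accessions were matched to RefSeq names of GRCm38.p6, with 1 symbol for 58.3% of probes; the headers name another build, so no coordinates come from the files. A mean per group was fitted to all 8 arrays with limma 3.58.1 (R 4.3.3), with 4 residual and 1.9 prior degrees of freedom, two-sided, Benjamini-Hochberg adjusted over all features, threshold 0.05; it was tested on simulated data. Where the dimmer group was above background on neither array, "at least N-fold" sets the brighter mean against, per array, the larger of the lowest intensity well above background and the probe's own. The adjusted p given with such a bound is that of the fitted difference, and the bound was not tested. Members called at a log2 difference of 1 or more, both coreceptors and the 4 nuclear genes were named with all values, and up to 4 called genes of each pathway list by smallest p. Members and lists were chosen with earlier results of these data known. Alternatives were quantile normalization, normexp (offset 50, on the median intensity, since no mean is given), the authors' values, other filters, second probes, an intensity trend, only the groups compared, a replicate block and each array left out. The labels do not say whether replicate numbers pair the arrays. The correlation of deviations between groups was −0.08 to 0.17, which does not exclude pairing. Python 3.11.15, pandas 2.3.3 and matplotlib 3.10.9 read the files and drew the figures.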

Additional observations from a re-analysis of the deposited data

Results flagged for a closer look

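The diet difference changed between 12 and 24 weeks for 16 genes, by the interaction test in limma with Benjamini-Hochberg adjustment over all features, where 29.9% of all features passed. The change, as a log2 difference of differences, was −2.81 for Wnt10a, −1.87 for Sfrp1, −1.64 for Sfrp5, −0.88 for Fzd9, −0.88 for Rspo3, −0.60 for Sfrp2, −0.58 for Wnt16 and −0.56 for Wnt2. It was 0.76 for Wnt5a, 0.74 for Axin2, 0.68 for Wnt5b, 0.67 for Fzd6, 0.67 for Lef1, 0.43 for Sfrp4, 0.35 for Tcf7 and 0.29 for Fzd4.

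The size for Wnt10a rests on HF24 arrays below background and was −0.66 with normexp. With normexp the values of Fzd6, Tcf7 and Fzd4 were 0.34, 0.16 and 0.17 and did not pass (adjusted p = 0.0505, 0.188 and 0.207), while those of Sfrp5, Fzd9 and Rspo3 were −0.88, −0.53 and −0.52 and passed. A second Wnt5a probe gave 0.14 (adjusted p = 0.896) and a second Wnt5b probe 0.44 (adjusted p = 0.0547). Groups of 2 arrays are too small for a test of single outlying arrays.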

How the results depend on the processing

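Over the 39 genes and the named pathway genes, 4495 values were recomputed under the alternatives. Many alternatives change only the filter, the variance model or arrays outside a comparison, which leaves the fitted difference of a probe as it was. There the direction was fixed in advance, so the counts that follow are no measure of robustness. Of the 4495 values, 4086 kept their direction and their side of the threshold, and 67 that passed under neither setting changed sign. A further 289 lost the call, 50 gained one, and 3 changed sign with a call on one side. The 3 were Wnt11 with its second probe (0.004 for the diet at 24 weeks and 0.30 for the interaction) and Dkk2 without HF12 replicate 2 (−0.40 for the diet at 12 weeks, and 0.41 without HF12 replicate 1); the cause was not tested. Leaving out 1 array gave 11 to 19 genes called for the diet at 12 weeks, 10 to 19 at 24 weeks, 20 to 25 for time on chow, 19 to 25 on the high-fat diet and 12 to 15 for the interaction. A group left with 1 array was assumed to vary like the others. Over all features, fewer were called in every comparison whenever 1 array was left out. Calls that held without any 1 array were 9 of 20, 9 of 19, 20 of 25, 19 of 24 and 12 of 16 in that order. With only the groups compared, 12 genes were called for the diet at 24 weeks, from fewer arrays in the fit, and 7501 of all 29584 features. The replicate block gave 17, 18, 25, 21 and 13 calls, and 8033, 8947, 12730, 12806 and 7642 over all features. Whether the numbers pair the arrays is not given in the labels. Normexp shrank 40 of 104 calls by over 1.5 times, and for genes near background the size of a difference is limited by their signal.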
